A study of Homo sapiens with 8 samples.

Results

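The AP-1 and immediate early genes FOS, FOSB, FOSL1, FOSL2, JUN, JUNB, JUND, ATF3, EGR1 and IER3 were followed in OAW42-R cells after inhibition of the long noncoding RNA UCA1. Members were the genes of this list whose RefSeq accession stands on a non-control probe of the array, and all 10 were found, with 14 probes, among 47753 genes on the array. OAW42-R was made from OAW42, a line of serous ovarian cancer, by repeated exposure to cisplatin, and it tolerates the drug. Cultures received either a nontargeting siRNA pool (sictrl) or a mix of siRNAs number 2 and number 4 against UCA1 (siUCA1), at 20 nM in both conditions. Both groups thus share the resistant line, its insulin-containing medium and the transfection itself, with no cisplatin named in the labels of either. By the study's methods, RNA of the 2 conditions came from 4 independent experiments. It was measured on 8 one-color Agilent arrays, which the labels name A1, M2, A2 and A3 in each condition. The labels place RNA extraction 24 h after transfection, whereas the study's methods give a longer interval. Single time points of this kind hold no minute-scale course, and the cells come from 1 resistant line.

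AP-1 is a family of dimeric transcription factors. JUN proteins pair with each other, with FOS proteins or with ATF proteins through a leucine zipper, and the pair binds a short palindromic DNA site next to which many genes of proliferation, invasion and stress are transcribed. FOS, FOSB, JUNB, EGR1, ATF3 and IER3 are among the immediate early genes. Transcription of such genes starts within minutes of a growth factor or stress signal without new protein synthesis and soon ceases. FOSL1, FOSL2 and JUND last longer in proliferating cells.

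The promoters of several members carry letters of the sites to which these factors and their regulators bind, and the matches found before the transcription start are shown here. RefSeq promoters of GRCh38.p14, from 250 bases before to 50 bases after the start, were at hand for 8 of the 10 members (9 promoters, FOSL1 and IER3 having none here). The 8-letter site TGACNTCA, to which ATF and JUN pairs bind, was searched on both strands. It was found in the promoters of JUN, JUND and ATF3, and in 7.72% of all 35116 promoters of this length. It is in capitals in the lines below, each of which reads 5′ to 3′ along the strand of its gene.
JUN (minus strand, chr1:58784099-58784122, 67 bases before the start): ccttggggTGACATCAtgggctat
JUND (minus strand, chr19:18281807-18281830, 200 bases before the start): cgcccccaTGACGTCAacccacaa
ATF3 (plus strand, chr1:212565276-212565299, 123 bases before the start): ctatgataTGACATCAtatggcca

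EGR1 is switched on through serum response elements, whose core is the CArG box. This box was found in 1.29% of all promoters and in that of EGR1 alone among the members, at 2 sites, in capitals in the first lines below. The letters of an AP-1 site, TGANTCA, searched in the same way, were found in 7.71% of all promoters and, among the members, only in that of FOSL2, just after the start. The letters GCGNGGGCG, to which EGR1 itself binds, were searched likewise and found in 9.43% of all promoters and, among the members, only in that of EGR1, in capitals in the last line below. A match is a run of letters and was not measured as a bound site.
EGR1 (plus strand, chr5:138465366-138465391, 105 bases before the start): cggtcctgCCATATTAGGgcttcctg
EGR1 (plus strand, chr5:138465388-138465413, 83 bases before the start): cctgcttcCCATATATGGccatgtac
EGR1 (plus strand, chr5:138465273-138465297, 198 bases before the start): ggatgcggGCGCGGGCGcgggccct

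Every value below is a log2 signal relative to the 75th percentile of its array, so that 0 is the brightness at that percentile, and 1 unit is a doubling. A level of one probe is not comparable with that of another. The test was limma's, fitted over the 15454 genes with a detected probe, and a gene is called when its Benjamini-Hochberg adjusted p is under 0.05. UCA1 served as the check of the labels. Its mean went from 8.20 ± 0.49 (SD, n = 4) with sictrl to 3.16 ± 0.47 (SD, n = 4) with siUCA1 (difference -5.04, adjusted p = 0.000122, limma). Of the 15454 genes, 11.6% were called, 5.72% higher and 5.85% lower in siUCA1. With arrays scaled to their median instead, the share of the called genes that was higher went from 49.4% to 21.3%. The epithelial markers EPCAM, KRT8, KRT18, KRT19, CDH1 and PAX8 were well above background on all 8 arrays, whereas WT1, MUC16 and MSLN, which serous carcinomas often express, were on none. Among the markers listed for leukocytes, endothelium, fibroblasts and mesothelium, CD14, VWF and ACTA2 were well above background on all arrays, and CD3E was on none. Summed on the linear scale relative to the 75th percentile, the epithelial markers were at 1051 to 1707 on the sictrl arrays and at 1107 to 1805 on the siUCA1 arrays, the endothelial ones at 0.795 to 0.979 and at 0.910 to 1.31, and the fibroblast and mesothelial ones at 4.88 to 6.43 and at 6.08 to 7.98. CDH5, COL1A2, PDGFRB and CALB2, which define these other cells, were well above background on none of the arrays. Of the 6 epithelial markers detected on all arrays, CDH1 (E-cadherin) was called, with a fall of 0.81 (adjusted p = 0.0149, limma). The others were not, with log2 fold changes of 0.50 for EPCAM (adjusted p = 0.0675, limma; all siUCA1 arrays above all sictrl arrays), 0.30 for KRT8, 0.18 for KRT19, -0.10 for KRT18 and -0.16 for PAX8. CLDN4, a further epithelial marker, was well above background on 4 sictrl arrays but on 1 siUCA1 array, so that its lower side is largely background. Its log2 fold change of -0.75 was not called (adjusted p = 0.179, limma). CD14 rose by 0.70 (adjusted p = 0.0478, limma), and the part of these markers in the members' values was not tested.

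Among the 8 arrays, a pair stood apart, sictrl A3 and siUCA1 A1. The scanner software models uneven brightness across an array as a multiplicative trend and corrects the signal for it. The root mean square of this modelled surface was 0.0737 to 0.0943 for 6 of the arrays. It was 0.321 for sictrl A3 and 0.287 for siUCA1 A1. For each tested member, values with and without them are given below.

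None of the 7 members that could be tested was called (0 higher and 0 lower, against 11.6% of all genes in either direction). At an unadjusted p under 0.05 there were 3, FOSL1, FOSL2 and JUND, all with higher means in siUCA1, beside 27.6% of all genes. The 4 values of siUCA1 lay wholly above the 4 of sictrl for 2 members, JUND and FOSL2, beside 11.2% of all genes, and wholly below for 0 members, beside 9.67% (20.8% of all genes in either direction). The median log2 fold change of the 7 was 0.42, beside 0.03 over all genes tested, with 5 positive and 2 negative values. This median of the members moved with the processing. It was 0.22 with the mean of the kept probes as the value of a gene, and 0.27 after removal of the remaining surface trend. Without sictrl A3 it was also 0.27, and without sictrl A2 it was 0.46. The remaining 3 members, FOS, FOSB and JUNB, were not tested because their probes lay at background. With both arrays that stand apart left out, 3 of the 7 members were called, JUND, FOSL1 and ATF3, all higher in siUCA1, but 24.3% of all genes were then called as well. In bulk RNA, a change in every cell and a change in the share of cells that express a gene cannot be told apart.

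**Figure D1:**
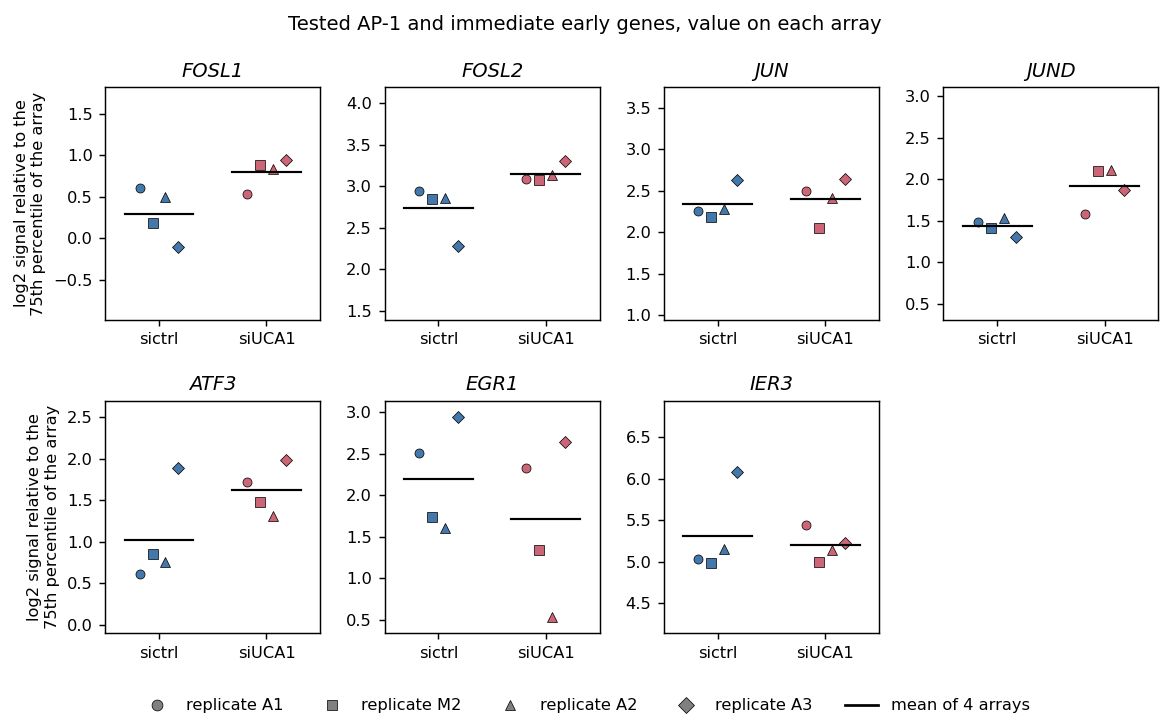
Log2 signal relative to the 75th percentile of the array (vertical axes, all of the same span) of the 7 tested members on the 4 sictrl (blue) and 4 siUCA1 (red) arrays. Symbols stand for the replicate name and lines for the mean of 4 arrays. All siUCA1 values of JUND and FOSL2 lie above all sictrl values, and the groups overlap for the other 5 genes.

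The FOS family was represented above background by its FOS-related members only. FOS (NM_005252), the founding partner of JUN, had a single probe. Its background-subtracted signal was between 5.36 and 16.5 on the 8 arrays, while the lowest signal that passed as well above background was between 10.8 and 25.9 depending on the array. FOS was well above background on 1 of 8 arrays, siUCA1 A3. FOSB (NM_006732), a close relative, was well above background on 0 of 8 arrays, with signals from 3.31 to 7.09. Neither gene allows a fold change. No difference in FOS or FOSB was detectable with these probes, and a low transcript level cannot be told apart from a probe that reads its transcript poorly.

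FOSL1 (NM_005438) encodes FRA1, a FOS-related partner linked to invasion in carcinoma cells. On the sictrl arrays A1, M2, A2 and A3 it was at 0.61, 0.18, 0.50 and -0.11, and on the corresponding siUCA1 arrays at 0.53, 0.88, 0.83 and 0.94. The siUCA1 array A1 lay among the sictrl arrays, and the other 3 siUCA1 arrays lay above all of them. FOSL1 averaged 0.29 ± 0.32 (SD, n = 4) over the sictrl arrays and 0.79 ± 0.18 (SD, n = 4) over the siUCA1 arrays. This log2 fold change was 0.50 (standard error 0.17, 95% interval 0.11 to 0.89), and it did not pass over all genes (adjusted p = 0.0960, limma; two-sided exact permutation test over arrays, p = 0.0571). FOSL1 was called after removal of the remaining surface trend of each array (0.52, adjusted p = 0.0314, limma) and with both arrays that stand apart left out (0.46, adjusted p = 0.0399, limma), but not without sictrl A3 alone (0.37) or siUCA1 A1 alone (0.59).

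FOSL2 (NM_005253) encodes FRA2, the other FOS-related protein. It was at 2.95, 2.85, 2.86 and 2.28 on the sictrl arrays A1, M2, A2 and A3, and at 3.09, 3.07, 3.14 and 3.31 on those of siUCA1. Every siUCA1 array lay above every sictrl array, and sictrl A3 lay far below the other 3 of its group. FOSL2 had a log2 fold change of 0.42 (95% interval 0.07 to 0.77, adjusted p = 0.115, limma). The exact permutation test gave p = 0.0286, the smallest that 4 arrays against 4 allow. Without sictrl A3 the difference was 0.27 (adjusted p = 0.0999, limma), without siUCA1 A1 it was 0.44 and without both it was 0.29 (adjusted p = 0.0604). After removal of the remaining surface trend of each array it was also 0.27 (adjusted p = 0.0819, limma).

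The JUN family gave one gene near the threshold, one without a measurable difference and one at background. JUND (NM_001286968), the family member that is present in resting cells and tends to restrain growth, came nearest of all members to the threshold. It was at 1.48, 1.41, 1.54 and 1.31 on the sictrl arrays A1, M2, A2 and A3, and at 1.58, 2.10, 2.11 and 1.87 on those of siUCA1. The groups did not overlap, and siUCA1 A1 was the closest to the sictrl arrays. JUND averaged 1.43 ± 0.10 (SD, n = 4) over the sictrl arrays and 1.91 ± 0.25 (SD, n = 4) over the siUCA1 arrays, a ratio of 1.39 on the linear scale. Its log2 fold change of 0.48 (standard error 0.13, 95% interval 0.17 to 0.78) did not pass over all genes (adjusted p = 0.0533, limma; exact permutation test, p = 0.0286).

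JUND was called under 5 of 23 other settings and not under the remaining 18, where the adjusted p reached 0.497 (median scaling, limma). It was called when only probes detected on all 8 arrays entered (adjusted p = 0.0473, limma), with eBayes set to trend and robust (adjusted p = 0.0463), with array weights (0.57, adjusted p = 0.00201), without siUCA1 A1 (0.59, adjusted p = 0.0116) and without both arrays that stand apart (0.55, adjusted p = 0.0106). It was not called with normexp background correction (0.40, adjusted p = 0.463) or without a detection filter (adjusted p = 0.480). Its log2 fold change lay between 0.38 and 0.59 in all 23 other settings.

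JUN (NM_002228), the most potent transactivator of the family, was at 2.25, 2.19, 2.28 and 2.63 on the sictrl arrays A1, M2, A2 and A3, and at 2.50, 2.05, 2.41 and 2.64 on those of siUCA1. The groups overlapped throughout. JUN had a log2 fold change of 0.06 (95% interval -0.28 to 0.41, adjusted p = 0.828, limma; exact permutation test, p = 0.629), and it turned to -0.03 with arrays scaled to their median. Without sictrl A3 it was 0.16, without siUCA1 A1 0.03 and without both 0.13. A change of JUN of more than 1.33-fold upward or to under 0.824 of its level thus lies outside the interval. JUNB (NM_002229), which competes with JUN for partners and is itself an immediate early gene, was well above background on 0 of 8 arrays, with signals from 9.30 to 18.7. On siUCA1 A1 its signal exceeded the lowest signal that was well above background on that array without being marked so itself, and on the other 7 arrays it was below that limit. No fold is given.

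**Figure D2:**
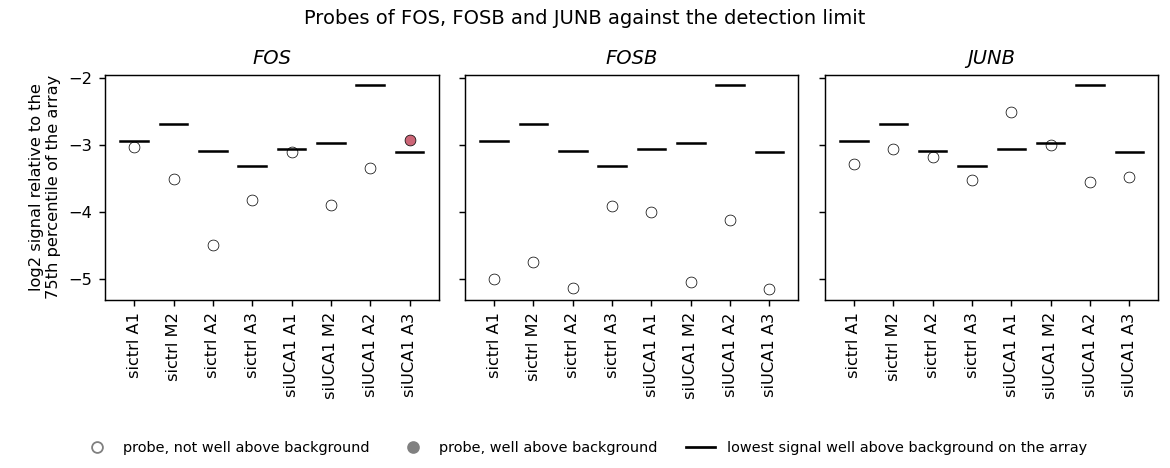
Log2 signal relative to the 75th percentile of the array (vertical axis) of the probes of FOS, FOSB and JUNB on each of the 8 arrays. Circles are the probes, filled where well above background, and bars are the lowest signal that was well above background on that array. Only FOS on siUCA1 A3 is filled.

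ATF3 is a stress-induced member of the ATF/CREB family that pairs with JUN proteins, often as a repressor. The brightest of its 4 probes (A_23_P34915, NM_001040619) was at 0.61, 0.85, 0.75 and 1.89 on the sictrl arrays A1, M2, A2 and A3, and at 1.73, 1.48, 1.31 and 1.99 on those of siUCA1. The sictrl arrays A1, M2 and A2 lay below all siUCA1 arrays, whereas sictrl A3 lay above 3 of the 4. ATF3 averaged 1.03 ± 0.58 (SD, n = 4) over the sictrl arrays and 1.62 ± 0.30 (SD, n = 4) over the siUCA1 arrays. Its log2 fold change of 0.60 (standard error 0.28, 95% interval -0.04 to 1.23) was the largest of the members in size and did not pass (adjusted p = 0.206, limma; exact permutation test, p = 0.114). Without sictrl A3 it was 0.89 and ATF3 was called (adjusted p = 0.0163, limma), and with both arrays that stand apart left out it was 0.85 (adjusted p = 0.0188, limma).

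The other probes of ATF3 did not show that difference. A second probe of the same accession (A_33_P3214096) was between -1.73 and -1.02 on the sictrl arrays and between -1.64 and -1.07 on the siUCA1 arrays, and its means differed by -0.05 (limma fitted to every kept probe, adjusted p = 0.897). The probe for NM_001674 (A_33_P3214105), well above background on 7 of 8 arrays, changed by 0.12 (adjusted p = 0.806). The fourth probe (A_24_P33895) was well above background on 0 of 8 arrays. With the mean of the kept probes as the value of the gene, the log2 fold change of ATF3 was 0.22. Which of the probes reads the main transcript of these cells was not tested.

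The genes whose 8 values were most like those of ATF3, by root mean square difference after each gene's own mean was removed, were B2M (0.105), REEP3 (0.133) and ARMH4 (0.136). B2M encodes the light chain of class I MHC molecules. None of the 3 was called, with log2 fold changes from 0.60 to 0.71 and adjusted p from 0.0741 to 0.139 (limma). Fold changes near that of the brightest ATF3 probe follow from the way these genes were picked.

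EGR1 (NM_001964), a zinc finger factor and classic immediate early gene, varied more between arrays than any other member. It was at 2.51, 1.73, 1.61 and 2.94 on the sictrl arrays A1, M2, A2 and A3, and at 2.33, 1.34, 0.53 and 2.64 on those of siUCA1. In both conditions the arrays A1 and A3 were the high ones and M2 and A2 the low ones. EGR1 averaged 2.20 ± 0.63 (SD, n = 4) over the sictrl arrays and 1.71 ± 0.96 (SD, n = 4) over the siUCA1 arrays. Its log2 fold change was -0.49 (95% interval -1.58 to 0.61, adjusted p = 0.561, limma; exact permutation test, p = 0.429). It went from -0.80 without siUCA1 A3 to -0.09 without siUCA1 A2. Without sictrl A3 it was -0.24 (adjusted p = 0.786, limma), without siUCA1 A1 -0.69 and without both -0.45.

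IER3, an early response gene that modulates survival signalling, had 2 probes for NM_003897. The brighter one was at 5.03, 4.99, 5.15 and 6.09 on the sictrl arrays A1, M2, A2 and A3, and at 5.45, 5.00, 5.14 and 5.22 on those of siUCA1. Apart from sictrl A3, which lay above every other array, the groups overlapped. IER3 had a log2 fold change of -0.11 (95% interval -0.66 to 0.43, adjusted p = 0.813, limma) and turned to 0.15 without sictrl A3 (adjusted p = 0.463) and to 0.065 without both arrays that stand apart, while it was -0.19 without siUCA1 A1. The second probe, between 3.67 and 4.36 in sictrl and between 3.44 and 3.81 in siUCA1, changed by -0.22 (limma fitted to every kept probe, adjusted p = 0.438), and sictrl A3 was again its highest array.

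**Figure D3:**
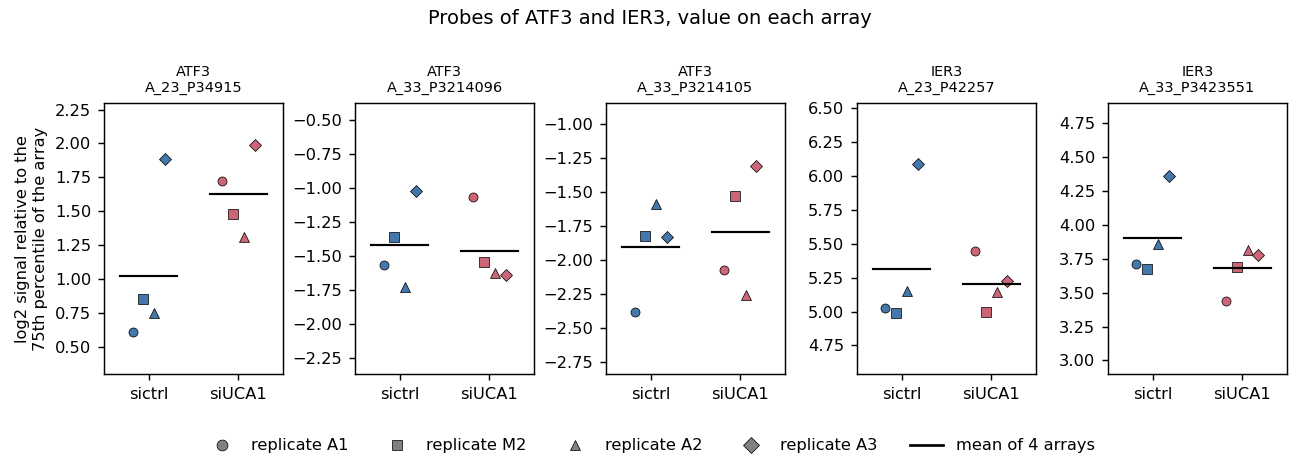
Log2 signal relative to the 75th percentile of the array (vertical axes, all of the same span) for the 3 kept probes of ATF3 and the 2 of IER3 on the sictrl (blue) and siUCA1 (red) arrays. Symbols stand for the replicate name and lines for the mean of 4 arrays. The means of ATF3 differ by 0.60 for the brightest probe and by -0.05 and 0.12 for the others, and sictrl A3 is the highest sictrl array for both IER3 probes.

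On sictrl A3 the members went in 2 directions at once. EGR1, ATF3, IER3 and JUN had their highest sictrl value there, and FOSL1, FOSL2 and JUND had their lowest. With the remaining surface trend removed from every array, the log2 fold changes of the 7 members kept their signs (FOSL1 0.52, FOSL2 0.27, JUND 0.43, JUN 0.03, ATF3 0.52, EGR1 -0.55 and IER3 -0.17).

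**Figure D4:**
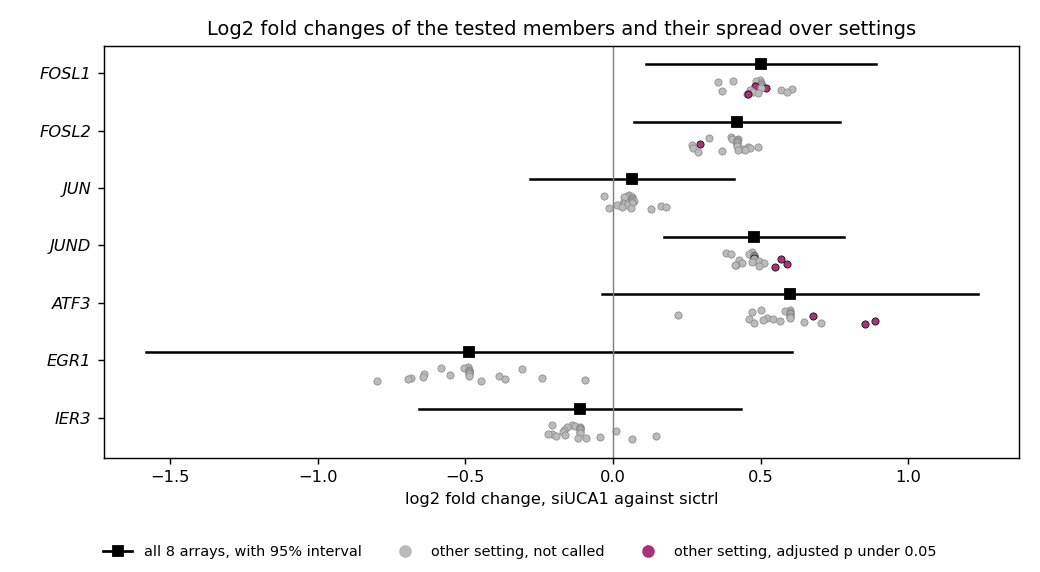
Log2 fold change of siUCA1 against sictrl (horizontal axis) for the 7 tested members. Black squares and lines are the values from all 8 arrays with their 95% intervals, and each smaller circle is the value under 1 of 23 other settings, in purple where the adjusted p is under 0.05. FOSL1, FOSL2, JUND and ATF3 stay above 0 in every setting and EGR1 below, whereas JUN and IER3 cross 0.

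Partners and relatives of AP-1 with a basic leucine zipper were called at about the rate of all genes. Of 19, 16 were tested, 0 rose and 2 fell (12.5% called, beside 11.6% of all genes), with a median log2 fold change of -0.04. ATF5, a relative of ATF4 active in cell survival, fell by 0.64 (adjusted p = 0.00497, limma), with the 4 siUCA1 arrays between 0.67 and 0.73 and those of sictrl between 1.16 and 1.43. JDP2, which pairs with JUN and represses AP-1 targets, fell by 0.68 (adjusted p = 0.0321, limma). On the siUCA1 arrays A1, M2, A2 and A3 it was at 2.30, 1.49, 1.71 and 1.75, all below the lowest sictrl value of 2.44. The call of ATF5 was kept with each array left out in turn but lost with median scaling (adjusted p = 0.0723), normexp (0.131) and no detection filter (0.158). JDP2 lost its call in the same 3 settings (adjusted p = 0.0649, 0.0960 and 0.303), and of the 8 fits that leave out 1 array it was called in those without sictrl A3 or siUCA1 A1 (adjusted p up to 0.0969 in the other 6). ATF4 (log2 fold change 0.18), DDIT3 (-0.10) and CEBPB (0.12), which respond to stress, and the CREB family member CREB1 (0.23) were not called.

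The other immediate early genes and their serum response factors were 34, of which 24 were tested, 2 rose and 2 fell (16.7%), and the fall of CSRNP1 among them rests on a probe that entered the test only through the sictrl arrays. BTG2, an antiproliferative gene induced by growth and damage signals, gave the largest rise. It was at 3.70, 4.06, 4.10 and 4.58 on the sictrl arrays A1, M2, A2 and A3, and at 5.01, 5.48, 5.57 and 5.70 on those of siUCA1, so that the groups did not overlap. This rise of 1.33 (adjusted p = 0.00690, limma) is 2.51-fold. ELK4, a partner of serum response factor, rose by 0.66 (adjusted p = 0.00902, limma). Both were called with each array left out in turn, but ELK4 was not with median scaling (adjusted p = 0.220), normexp (0.139) or no detection filter (0.181), nor BTG2 in the last of these (0.0910).

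CSRNP1, a nuclear protein induced by AXIN1, was at -1.47, -1.21, -1.17 and -0.58 on the sictrl arrays A1, M2, A2 and A3, and at -2.31, -2.67, -2.68 and -2.21 on those of siUCA1, where it was well above background on 2 of 4 arrays. CSRNP1 was not among the genes tested when detection on all 8 arrays was asked for. Its log2 fold change was -1.36 as measured (adjusted p = 0.00549, limma), of which the siUCA1 side is partly background, and -1.22 with dim values raised to the detection limit of their array (adjusted p = 0.00767). With normexp the log2 fold change was -0.37 and was not called (adjusted p = 0.131), nor was it called without a detection filter (adjusted p = 0.0803). CCN1, a matricellular protein of the immediate early class, fell by 0.71 (adjusted p = 0.0173, limma), and its call was lost without sictrl M2 or A2 or without siUCA1 M2 or A2 (adjusted p up to 0.0589). EGR2, EGR3, EGR4, NR4A1, NR4A2, NR4A3, ARC, CCN2 and SRF had no probe above background on all arrays of a group, and no probe matched ELK3.

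Of 19 kinases and turnover factors of AP-1, 18 were tested, 1 rose and 1 fell (11.1%). The called genes were the kinases that phosphorylate JNK. MAP2K7 rose by 0.39 (adjusted p = 0.0182, limma), from between 5.41 and 5.46 on the sictrl arrays to between 5.77 and 5.89 on the siUCA1 arrays. MAP2K4 fell by 0.51 (adjusted p = 0.0327, limma), from between 3.97 and 4.14 to between 3.31 and 3.83. The call of MAP2K4 was kept only without siUCA1 A1 among the 8 fits that leave out 1 array (adjusted p up to 0.102), and that of MAP2K7 was lost without sictrl M2, sictrl A2 or siUCA1 A2 (adjusted p up to 0.0709). With the remaining surface trend removed MAP2K7 was at 0.25 and was not called (adjusted p = 0.0670), nor was it with median scaling (0.29, adjusted p = 0.552). MAPK10 was not tested, and the JNK genes MAPK8 (log2 fold change 0.26) and MAPK9 (-0.37) were not called.

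Genes known as AP-1 targets were 20, and 10 of them were tested. None rose and 1 fell (10% called), with a median log2 fold change of -0.14. IL6, a cytokine with AP-1 and NF-kB sites in its promoter, was between 3.67 and 3.99 on the sictrl arrays and between 2.97 and 3.55 on those of siUCA1, with A1 the highest of the latter. It fell by 0.64 (adjusted p = 0.0259, limma), and of the 8 fits that leave out 1 array it was called in those without sictrl A3 or siUCA1 A1 (adjusted p up to 0.0834 in the other 6). Its call was also lost with median scaling (adjusted p = 0.0668), normexp (0.152) and no detection filter (0.290). The collagenase gene MMP1 (0.33), the gelatinase gene MMP9 (0.33), CCND1 (-0.04), VEGFA (-0.27) and CD44 (-0.24) were not called. Among those not tested were MMP3, MMP10, MMP13, PLAU, PLAUR, IL11, CXCL8, CCL2 and HBEGF, for which no probe was above background on all arrays of a group.

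Together the 4 wider lists held 68 tested genes, of which 3 rose and 6 fell (13.2%). The share called was 10% to 16.7% in the single lists, beside 11.6% of all genes. BTG2 was called under 22 of the 23 other settings. After median scaling BTG2 and CSRNP1 were the called genes of the 4 lists, after normexp BTG2 alone, and without a detection filter 0 genes were called.

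**Figure D5:**
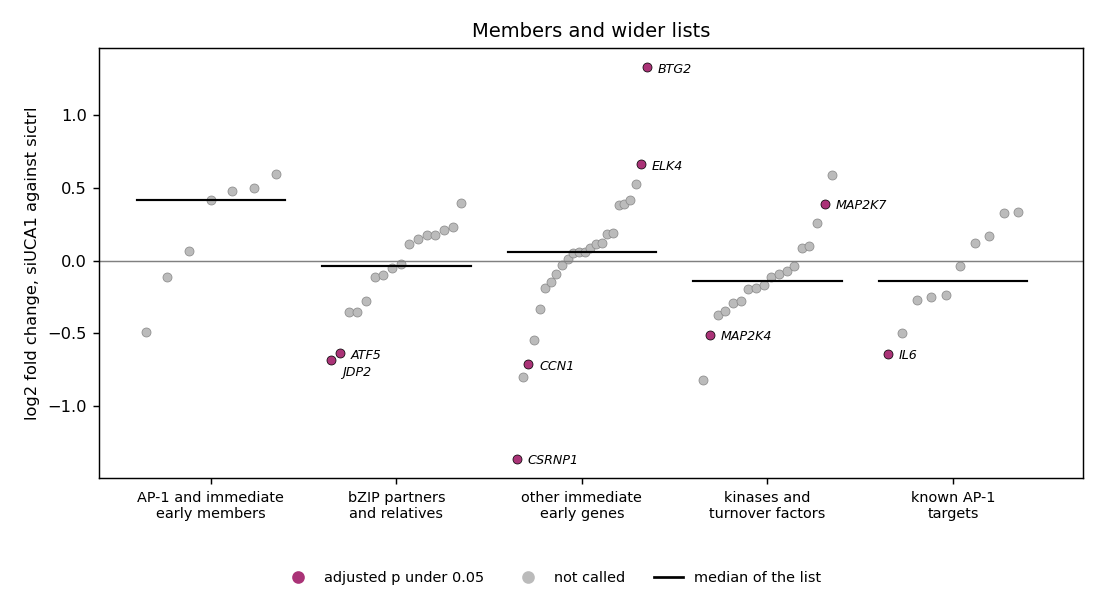
Log2 fold change of siUCA1 against sictrl (vertical axis) for the 7 tested members and the tested genes of 4 wider lists, ordered by value within each list. Purple points have an adjusted p under 0.05 and are named, and black lines are the medians of the lists. The 7 members have a median of 0.42 and no purple point, and the 4 lists hold 9 purple points, of which CSRNP1 was above background on 2 of 4 siUCA1 arrays.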

How the data were processed

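Total RNA of 8 samples was measured on 1-color Agilent 8x60k arrays on 1 slide. The authors deposited the output of Agilent Feature Extraction 10.7.3.1 (per the submitters' processing notes), in which each spot has a background-subtracted intensity on a linear scale, not normalized between arrays, and other flags for outliers and for signal well above background. The deposited value table of the series held the same intensities (largest relative difference 0).

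Log2 intensities were shifted per array so that the 75th percentile over non-control spots was at 0. Outlier spots (76 to 132 per array) were dropped, and repeated spots were averaged by probe. Probes entered when every array of a group (4 of 4) showed them well above background, and the brightest such probe stood for its gene (19045 probes, 15454 genes). Accessions were named through RefSeq tables of GRCh38.p14, which matched 31104 of 58201 probes. Groups were compared with limma 3.58.1 (lmFit, eBayes, Benjamini-Hochberg) in R 4.3.3, the test the study's methods name, without covariates (none is stated there), and single genes with two-sided exact permutation tests over arrays (smallest p 0.0286). The procedure was tested on simulated data. Between 20858 and 24039 spots per array were well above background, and the number of arrays limits the precision.

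The members and lists were chosen with earlier results of these data known. The text names every member with every probe, UCA1, the called genes of each list (at most 6), the 3 genes most like the member with the largest change, and genes of a list that were not tested, except that some list genes are not reported here. List genes named as not called were chosen for their known roles after their values were seen. Other settings tried were quantile and median scaling, the percentile over detected probes, normexp on the median signal (the files hold no mean signal), other detection filters, the mean of the kept probes, each probe on its own, other variance models, slide row and replicate name as blocks, removal of the surface trend in tiles of 24 by 20 spots, outlier spots kept, and arrays left out.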

Additional observations from a re-analysis of the deposited data

Results flagged for a closer look

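In each condition the highest or lowest of the 4 arrays was compared with its nearest neighbour, for the 7 tested members and the 9 called genes of the wider lists (32 sets of 4 values). In 2 of them the gap, as a share of the whole range, exceeded what Dixon's test allows at the 95% level, and chance gives this in about 1 set in 20. Both were on sictrl A3. FOSL2 was at 2.28 there, against 2.85 to 2.95 on the other sictrl arrays (gap over range 0.846). IER3 was at 6.09 there, against 4.99 to 5.15 (gap over range 0.849).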

How the results depend on the processing

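The log2 fold change of UCA1 and the positive sign of FOSL1, FOSL2, JUND and ATF3 and the negative sign of EGR1 were kept in all 23 other settings. JUN turned to -0.031 with median scaling, and IER3 to 0.011 with array weights and to 0.065 with both arrays that stand apart left out. Array weights called 4 members (FOSL1 at 0.48, FOSL2 at 0.30, JUND at 0.57 and ATF3 at 0.68), beside 4814 of all genes and 26 of the wider lists. Leaving out both arrays called 3 members (FOSL1 at 0.46, JUND at 0.55 and ATF3 at 0.85), beside 3878 and 22. Called members numbered 1 with detection on all 8 arrays and with eBayes trend and robust settings (JUND at 0.48 in both), and 1 with the surface trend removed (FOSL1 at 0.52). In these 3 settings 1 of 7 members is 14.3%, beside 12.3%, 11.8% and 15% of all genes, and with array weights 31.2% of all genes were called. Median scaling gave 535 called genes and 2 of the wider lists (main 1788 and 9), normexp 380 and 1, and no detection filter 76 and 0. With 1 array left out, called genes numbered 760 (without sictrl A2) to 2290 (without siUCA1 A1), members 0 to 1, and wider-list genes 4 to 14. The log2 fold changes then were 0.37 to 0.61 for FOSL1, 0.27 to 0.49 for FOSL2, -0.015 to 0.18 for JUN (lowest without siUCA1 A3), 0.41 to 0.59 for JUND, 0.46 to 0.89 for ATF3, -0.80 to -0.09 for EGR1 and -0.22 to 0.15 for IER3 (highest without sictrl A3). The fewer calls without the filter go with 47753 genes tested, and the cause of the other changes was not tested.

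With the replicate name as a replicate block, 11.2% of all genes and 0 members were called, JUND kept its log2 fold change of 0.48, EGR1 was at -0.49 with a standard error of 0.17 in place of 0.48 (adjusted p = 0.128, limma), and 10 genes of the wider lists were called in place of 9. MAP2K4 lost its call (adjusted p = 0.0560, limma), and DUSP1 and ELK1 gained one, ELK1 with a probe that was well above background on 4 sictrl arrays but on 1 of 4 siUCA1 arrays, so that its lower side is largely background. Deviations of same-named arrays from their group means correlated at 0.038 (A1), 0.278 (M2), 0.216 (A2) and 0.127 (A3), and sictrl A1 correlated best with siUCA1 M2 (0.109), so the names were not taken as pairs. Signal over background limits FOS, FOSB and JUNB, for which no comparison was possible.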

Other observations

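EGR1 and MMP1, singled out after their values were seen, were high on the arrays A1 and A3 and low on M2 and A2 in both conditions. MMP1 was at 0.59, -1.84, -1.80 and 0.01 on the sictrl arrays A1, M2, A2 and A3, and at 0.83, -1.69, -1.05 and 0.18 on those of siUCA1. For EGR1 the lower of the A1 and A3 values was 2.51 in sictrl and 2.33 in siUCA1, and the higher of the M2 and A2 values was 1.73 and 1.34. Neither gene was called (log2 fold changes 0.33 and -0.49 for MMP1 and EGR1). A shared replicate name was not shown to pair the arrays over all genes, so the part of the separate experiments in these values was not tested.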
